A study of Mus musculus with 10 samples.

Results

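The 9 genes Dcx, Sox2, Sox4, Sox11, Neurod1, Eomes, Nes, Igfbpl1 and Draxin mark the making of new granule neurons in the adult dentate gyrus. They were taken by symbol from a table of 31510 genes, and all 9 were found in it. The table holds microdissected hippocampus from 10 male APP/PS1 mice, a strain that carries transgenes of human amyloid precursor protein and presenilin and deposits amyloid in the brain. At 8 months of age 5 mice received AAV8-Irisin-FLAG in the tail vein and 5 received AAV8-GFP, and both groups were dissected 2 months later. AAV8 is a viral vector used here to express irisin, a secreted protein tagged with FLAG, in the liver, and mice of both groups carried the amyloid transgenes and a vector. The strain was listed as APP/PS1 mice (34832-JAX). Neither a wild-type nor an uninjected group was used here, so all differences below are between the vectors within amyloid-bearing mice.

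New granule neurons arise from radial glia-like stem cells of the subgranular zone. Their daughters pass through a dividing intermediate progenitor and a migrating neuroblast before they settle as immature granule neurons. Production falls steeply with age in mice, so these cells are a small share of a whole adult hippocampus. Exercise raises it, and irisin, the secreted part of the muscle membrane protein encoded by Fndc5, is one of the factors released during exercise. Sox2 and Nes belong to the stem cell stage, Eomes to the intermediate progenitor, and Neurod1, Sox4, Sox11, Dcx, Igfbpl1 and Draxin to the neuroblast and young neuron. Several are used elsewhere in the tissue too: Sox2 by astrocytes and precursors of oligodendrocytes, Nes by vessel cells, and Neurod1 by mature granule neurons. In a whole hippocampus, fewer cells of a type and less RNA per cell cannot be told apart.

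Promoter sequence is shown for the paralogues Sox4 and Sox11 and for Draxin. For Dcx the bases just before its second RefSeq start are shown. SoxC proteins, the class of Sox4 and Sox11, are known to act on Dcx in newborn neurons. The Dcx stretch lies inside the annotated gene, downstream of its 5' end at 143933311. The window before the first start of Dcx held none of the motifs searched. The sequences are RefSeq's on GRCm38.p6, the patched form of mm10, and are printed 5' to 3' on the minus strand, on which all 4 genes lie. They cover chr13:28953714-28953949, chr12:27342719-27342968, chr4:148130699-148130948 and chrX:143933125-143933154. Capitals mark the motifs CAGCTG (an E-box, bound by proneural factors), ACAAAG (bound by Sox proteins) and GGGCGG (a GC box), each on either strand, so that CTTTGT and CCGCCC are matches too.
Sox4: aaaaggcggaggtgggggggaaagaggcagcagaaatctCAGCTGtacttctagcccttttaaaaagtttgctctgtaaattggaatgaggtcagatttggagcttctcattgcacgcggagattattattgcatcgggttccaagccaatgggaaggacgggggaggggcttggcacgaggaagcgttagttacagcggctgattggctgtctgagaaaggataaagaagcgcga
Sox11: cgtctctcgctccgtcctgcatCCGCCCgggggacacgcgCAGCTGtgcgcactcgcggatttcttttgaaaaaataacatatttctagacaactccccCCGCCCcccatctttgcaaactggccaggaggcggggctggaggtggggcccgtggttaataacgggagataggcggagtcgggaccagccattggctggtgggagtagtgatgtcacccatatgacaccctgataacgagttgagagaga
Draxin: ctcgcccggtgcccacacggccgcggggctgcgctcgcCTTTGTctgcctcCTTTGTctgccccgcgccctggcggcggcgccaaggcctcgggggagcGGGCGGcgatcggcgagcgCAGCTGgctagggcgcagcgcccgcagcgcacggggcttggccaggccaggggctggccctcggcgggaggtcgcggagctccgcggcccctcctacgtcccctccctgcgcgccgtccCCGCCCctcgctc
Dcx: tttcttgcttggagctcagacaACAAAGgc

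Of the 9 genes, 8 had a promoter window of 250 bases before a start in the RefSeq table, and Igfbpl1 had none. Dcx had 2 starts. CAGCTG stood in the windows of 3 of the 8 genes, Sox4, Sox11 and Draxin, and in 13.0% of all 32851 windows. ACAAAG stood in 3 of 8, Dcx, Sox2 and Draxin, and in 16.5% of all windows. Dcx matched only before its second start. Members are counted here by gene and the shares over all are by window. GGGCGG stood in 5 of 8, Sox2, Sox11, Neurod1, Nes and Draxin, and in 32.7% of all windows. The E-box CAGATG, the Sox motif ACAATG and the T-box half-site AGGTGT were searched as well on both strands and had no match in these windows, against 14.4%, 10.7% and 11.8% of all windows. The motifs share no 6-base site with each other. The windows of Sox2, Draxin and Neurod1 were rich in G and C, at 72.0%, 79.6% and 67.6%, and that of Dcx was the poorest, at 41.6% for the first start, with a median of 52.4% over all windows. A match is a description of the letters, and binding was not measured.

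The deposited values are normalised counts, which summed to between 35284321 and 36623029 in a library, with 22434 to 23035 genes above 0. The most frequent low value of a library, searched only in a preset range around 1, lay between 0.882 and 1.17. Reads were not recovered from it. Fndc5, the mouse gene of the precursor of irisin, had 2479 ± 104 normalised counts in AAV8-Irisin-FLAG and 2610 ± 74.0 in AAV8-GFP (SD, n = 5 each). Markers of dentate granule cells were present in every library, with Prox1, a transcription factor of granule neurons, between 3417 and 4505 normalised counts in AAV8-Irisin-FLAG and between 3649 and 4428 in AAV8-GFP. Some libraries stood apart in RNA of neighbouring tissue. Ttr, the transthyretin gene of the choroid plexus, reached 1528 normalised counts in AAV8-Irisin-FLAG mouse 4 and 162 in AAV8-Irisin-FLAG mouse 3, against 10.1 to 48.3 in AAV8-GFP mice. AAV8-GFP mouse 3 had the lowest summed ependymal and dentate granule cell markers of all mice and the highest summed astrocyte, vessel and microglia markers.

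The comparison of the groups asks whether peripheral irisin changed the genes of new neurons in the amyloid-bearing hippocampus. None of the 8 genes that could be tested passed the threshold, and Eomes was too low to test. Dcx, Sox11, Igfbpl1 and Draxin had higher means in AAV8-Irisin-FLAG, Sox2, Sox4 and Nes had lower ones, and Neurod1 had nearly equal ones. The widest of these differences was that of Igfbpl1, whose mean was 14.6 ± 6.43 normalised counts in AAV8-Irisin-FLAG and 7.06 ± 4.15 in AAV8-GFP (SD, n = 5 each), and it varied between mice with Ttr. Intervals for Sox2, Sox4, Neurod1 and Nes lay between -0.22 and 0.13 on the log2 scale, whereas that for Igfbpl1 reached a fold of 4.3.

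By limma on log2(value + 1), 0 of the 8 genes tested had an adjusted p under 0.05, and 0.0% of all 17556 genes tested did. At an unadjusted p under 0.05 the count was 0 of 8, against 4.49% of all genes, of which 2.28% were higher and 2.21% lower in AAV8-Irisin-FLAG. Means on the log2 scale were higher in 5 of 8, against 50.5% of all genes. In none of the 9 genes did the 5 mice of one group lie wholly above or below the 5 of the other, which held for 0.803% of all genes tested, 0.382% higher and 0.422% lower in AAV8-Irisin-FLAG. The median log2 difference of the 8 genes was 0.063, and that of all genes tested was 0.00099. The value for Igfbpl1 enters this median although that gene passed the filter on low values (10 or more in 5 or more libraries) through 4 AAV8-Irisin-FLAG mice and 1 AAV8-GFP mouse. With that minimum raised to 50, which leaves out Igfbpl1 and Draxin, the median was -0.0143.

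**Figure D1:**
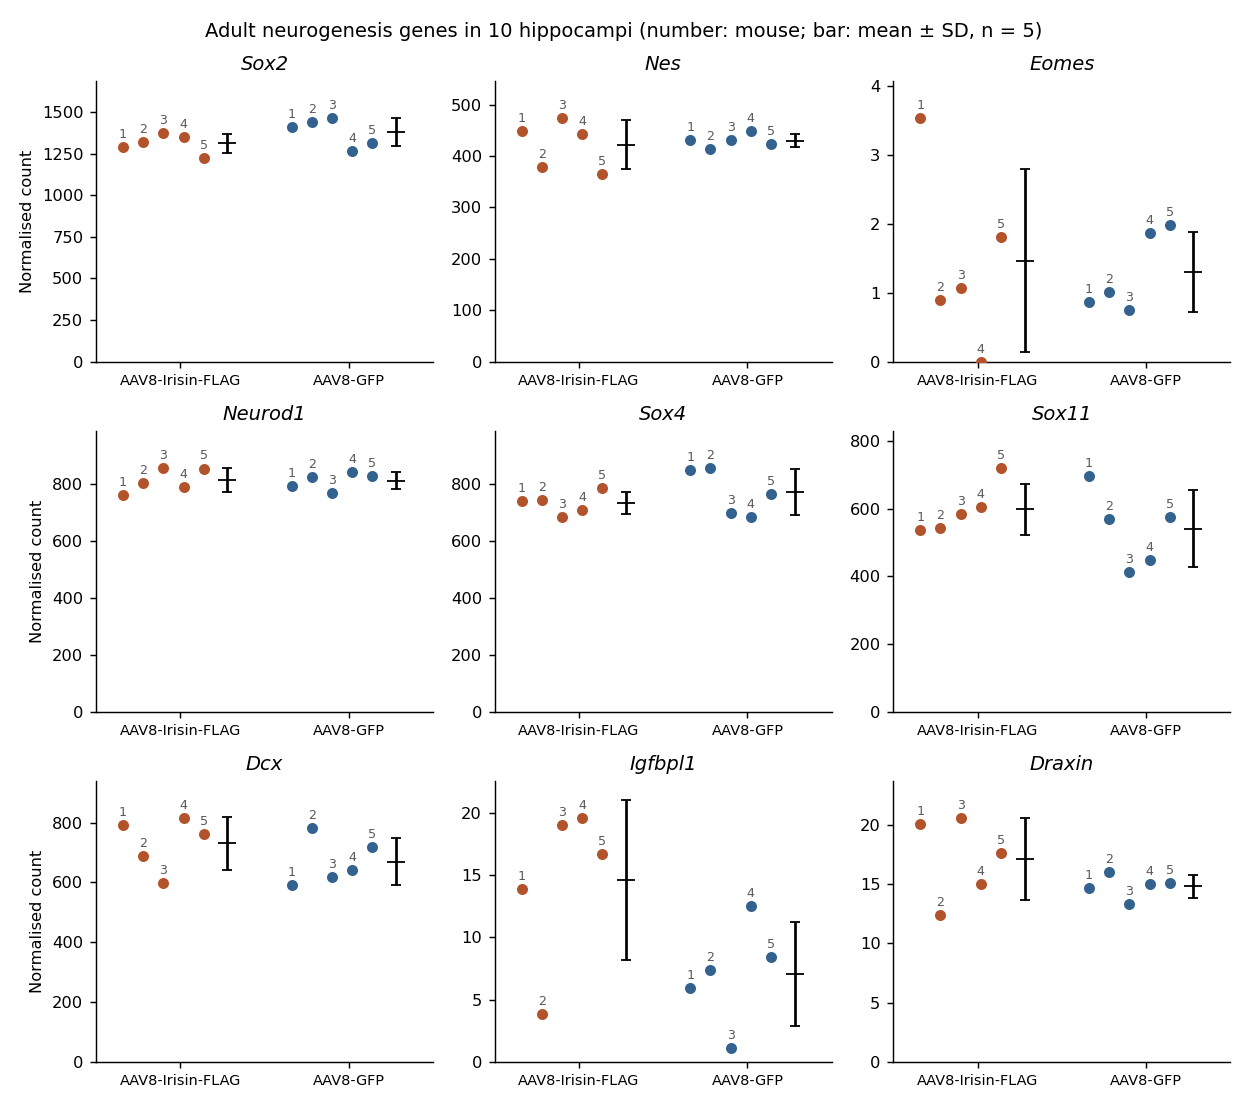
Normalised counts of the 9 genes (vertical axis, from 0) in each of 5 AAV8-Irisin-FLAG mice (left in each panel) and 5 AAV8-GFP mice (right), numbered by mouse, with bars for mean ± SD. The groups overlap in all 9 panels; Igfbpl1 has 4 AAV8-Irisin-FLAG points above all AAV8-GFP points, and Eomes stays between 0 and 3.54.

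Sox2, an HMG-box transcription factor that keeps neural stem cells undifferentiated (ENSMUSG00000074637.7, mm10 chromosome 3, 34650405 to 34652461, plus strand, 1 exon), had 1287.5, 1322, 1376, 1347 and 1226 normalised counts in AAV8-Irisin-FLAG mice 1 to 5, against 1410.5, 1442, 1466, 1264 and 1314 in AAV8-GFP mice 1 to 5. The AAV8-Irisin-FLAG mice lay in a narrow band below the 3 highest AAV8-GFP mice, and AAV8-GFP mice 4 and 5 lay inside that band. The means were 1312 ± 58.2 in AAV8-Irisin-FLAG and 1379 ± 86.7 in AAV8-GFP, giving -0.071 as the log2 difference (SE 0.051; 95% interval -0.18 to 0.039; limma, adjusted p = 0.942; exact permutation, two-sided, p = 0.19). It was -0.0473 without AAV8-Irisin-FLAG mouse 5, -0.108 without AAV8-Irisin-FLAG mice 3 and 4, and -0.123 relative to the dentate granule cell markers. That last setting, here and below, shifts every gene by the same amount, and the median of all genes tested was -0.05 under it. Sox2 lies within the long noncoding gene Sox2ot on the same strand, whose exons do not overlap it in GENCODE M21. Sox2ot had 991 ± 69.5 normalised counts in AAV8-Irisin-FLAG and 1036 ± 137 in AAV8-GFP.

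Nes encodes nestin, an intermediate filament of stem and progenitor cells (ENSMUSG00000004891.16, chromosome 3, 87971078 to 87980451, plus strand). It had 449, 379, 475, 443 and 365 normalised counts in AAV8-Irisin-FLAG mice 1 to 5, against 432, 413, 432, 448 and 423 in AAV8-GFP mice 1 to 5. AAV8-Irisin-FLAG mice 1 and 3 lay above every AAV8-GFP mouse and mice 2 and 5 below every one, so the groups had like means and unlike spreads. The coefficient of variation was 11.2% in AAV8-Irisin-FLAG and 2.98% in AAV8-GFP, a contrast that was not tested. The log2 difference was -0.032 with a 95% interval of -0.2 to 0.13 (limma, adjusted p = 0.969; exact permutation p = 0.659), and its sign turned when AAV8-Irisin-FLAG mouse 2 or mouse 5 was left out. It was -0.0555, -0.0757 and -0.0507 without AAV8-Irisin-FLAG mouse 1, 3 or 4, -0.0165 without AAV8-GFP mouse 4, -0.116 without AAV8-Irisin-FLAG mice 3 and 4, and -0.0828 relative to the dentate granule cell markers.

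Eomes, the T-box factor of intermediate progenitors that is also called Tbr2 (ENSMUSG00000032446.14, chromosome 9, 118478212 to 118486132, plus strand), had 3.54, 0.896, 1.07, 0 and 1.81 normalised counts in AAV8-Irisin-FLAG mice 1 to 5, against 0.863, 1.01, 0.752, 1.86 and 1.98 in AAV8-GFP mice 1 to 5. These are the values of a few reads, AAV8-Irisin-FLAG mouse 4 is listed at 0, and a difference between the groups was not detectable at this depth (exact permutation p = 0.937). Other genes of the progenitor stage gave more signal. Neurog2, a proneural factor upstream of Eomes, had 44.9 ± 13.4 normalised counts in AAV8-Irisin-FLAG and 46.8 ± 8.4 in AAV8-GFP. Insm1, a zinc-finger factor of neuronal precursors, had 334 ± 34.9 in AAV8-Irisin-FLAG and 359 ± 21.3 in AAV8-GFP.

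Neurod1 is a basic helix-loop-helix factor that new granule neurons need to survive and mature (ENSMUSG00000034701.9, chromosome 2, 79452521 to 79456751, minus strand). It had 762, 806, 858, 791 and 855 normalised counts in AAV8-Irisin-FLAG mice 1 to 5, against 795, 825, 768, 843 and 829.8 in AAV8-GFP mice 1 to 5. It was the steadiest of the 9 genes, with a coefficient of variation of 4.24% over the 10 mice, and the ranges of the groups nearly coincided. The log2 difference was 0.0031 with a 95% interval of -0.11 to 0.11 (limma, adjusted p = 0.995; exact permutation p = 0.937), and the sign turned under several alternatives. An exon of Neurod1 overlaps one of Cerkl on the same strand and one of Gm26755 on the opposite strand, which leaves the value uncertain. Cerkl had 151 ± 30.6 normalised counts in AAV8-Irisin-FLAG and 151.5 ± 17.0 in AAV8-GFP.

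Sox4 and Sox11 encode SoxC transcription factors, which switch on neuronal genes as a progenitor leaves the cell cycle. Sox4 (ENSMUSG00000076431.4, chromosome 13, 28948919 to 28953713, minus strand) had 739.7, 746.5, 685, 708 and 789 normalised counts in AAV8-Irisin-FLAG mice 1 to 5, against 849.7, 858, 700.3, 686.5 and 766 in AAV8-GFP mice 1 to 5. AAV8-GFP mice 1 and 2 were the highest of all and AAV8-GFP mice 3 and 4 lay among the lowest, on either side of most AAV8-Irisin-FLAG mice. The groups differed by -0.069 on the log2 scale (SE 0.07; 95% interval -0.22 to 0.082; limma, adjusted p = 0.943; exact permutation p = 0.373). Leaving out AAV8-Irisin-FLAG mouse 3 gave -0.045, and leaving out mouse 1, 2 or 4 of AAV8-GFP gave -0.0333, -0.0297 and -0.11. It was -0.0377 with array quality weights, -0.0205 without AAV8-Irisin-FLAG mice 3 and 4, and -0.121 relative to the dentate granule cell markers. An exon of Sox4 overlaps Gm26735 on the opposite strand, so the value is uncertain.

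Sox11 (ENSMUSG00000063632.6, chromosome 12, 27334264 to 27342574, minus strand, 1 exon) had 536, 544, 585, 606 and 721 normalised counts in AAV8-Irisin-FLAG mice 1 to 5, against 697, 570.5, 413, 447.5 and 576 in AAV8-GFP mice 1 to 5. The groups overlapped, since AAV8-GFP mouse 1 was second only to AAV8-Irisin-FLAG mouse 5, and AAV8-GFP mice 3 and 4 were the lowest of all. The means were 598 ± 74.5 in AAV8-Irisin-FLAG and 541 ± 113 in AAV8-GFP, giving 0.16 as the log2 difference (SE 0.13; 95% interval -0.11 to 0.43; limma, adjusted p = 0.942; exact permutation p = 0.317). The difference rested on single mice in size, at 0.260 without AAV8-GFP mouse 1 (unadjusted p = 0.0355, adjusted p = 0.982 by limma) and 0.0718 without AAV8-GFP mouse 3, and was 0.0929 and 0.1 without AAV8-Irisin-FLAG mouse 5 or AAV8-GFP mouse 4.

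Dcx encodes doublecortin, a microtubule-binding protein of migrating neuroblasts and the marker most used to count them (ENSMUSG00000031285.14, chromosome X, 143855842 to 143933311, minus strand). It had 792, 687, 596, 815.5 and 761 normalised counts in AAV8-Irisin-FLAG mice 1 to 5, against 589.6, 781, 619, 640.5 and 718 in AAV8-GFP mice 1 to 5. AAV8-Irisin-FLAG mice 1 and 4 were the highest, and AAV8-Irisin-FLAG mouse 3 was lower than all but AAV8-GFP mouse 1. The means were 730.3 ± 89.1 in AAV8-Irisin-FLAG and 669.6 ± 78.5 in AAV8-GFP, giving 0.12 as the log2 difference (SE 0.094; 95% interval -0.077 to 0.32), or a fold of 0.948 to 1.25 (limma, adjusted p = 0.942; exact permutation p = 0.286). Single mice moved it: it was 0.194 without AAV8-Irisin-FLAG mouse 3 (unadjusted p = 0.0388, adjusted p = 0.813 by limma), 0.0816 without AAV8-Irisin-FLAG mouse 4 and 0.0797 without AAV8-GFP mouse 1. Relative to the mean of the dentate granule cell markers it was 0.0724.

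Igfbpl1 encodes a secreted protein related to the binding proteins of insulin-like growth factors and is expressed by progenitors and neuroblasts (ENSMUSG00000035551.6, chromosome 4, 45809468 to 45826923, minus strand). It had 13.9, 3.81, 19.0, 19.6 and 16.7 normalised counts in AAV8-Irisin-FLAG mice 1 to 5, against 5.91, 7.36, 1.07, 12.5 and 8.43 in AAV8-GFP mice 1 to 5. In 4 AAV8-Irisin-FLAG mice it exceeded every AAV8-GFP value, and mouse 2 lay below 4 of the AAV8-GFP mice. The groups differed by 1.02 on the log2 scale (SE 0.51; 95% interval -0.067 to 2.1; limma, unadjusted p = 0.0637, adjusted p = 0.942; exact permutation p = 0.127). It was 1.40 without AAV8-Irisin-FLAG mouse 2, the lowest of its group (unadjusted p = 0.00868, adjusted p = 0.976 by limma). It was 0.587 without AAV8-GFP mouse 3 and 0.657 without AAV8-Irisin-FLAG mice 3 and 4. With a pseudocount of 8 it was 0.572 (unadjusted p = 0.0449, adjusted p = 0.941 by limma). Of all 17556 genes tested, 761 had an unadjusted p under 0.05 without AAV8-Irisin-FLAG mouse 2, and 797 with that pseudocount. Igfbpl1 passed the filter on low values through 4 AAV8-Irisin-FLAG mice and 1 AAV8-GFP mouse. Its p-values are therefore no independent support for a difference in that direction.

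Igfbpl1 was set beside the markers of neighbouring cell types in each mouse. The mouse with the most Ttr, AAV8-Irisin-FLAG mouse 4, also had the most Igfbpl1, AAV8-Irisin-FLAG mouse 3 was second in both, and the 3 mice with the least Ttr (AAV8-GFP mice 2 and 3 and AAV8-Irisin-FLAG mouse 2) were among the 4 with the least Igfbpl1. Over the 10 mice Spearman's rho with the mean log2 value of the 8 tested choroid plexus markers was 0.927 (permutation p = 0.00035, adjusted p = 0.0441 over 126 relations between the 9 genes and 14 lists), and Pearson's r was 0.734 (permutation p = 0.0234, adjusted p = 0.334). Without the 2 mice farthest from the median of the choroid plexus markers r was 0.844, and with the group means removed it was 0.631. This was the only one of the 126 relations with an adjusted p under 0.05, and by Spearman's rho alone. The permutations ran over all 10 mice without regard to group, so the group difference enters these p-values. With the group means removed neither rho nor a p was computed. With ependymal markers r was 0.838 (permutation p = 0.00573, adjusted p = 0.332) and rho was 0.697 (permutation p = 0.0314, adjusted p = 0.494), and r was 0.592 without the 2 farthest mice. With endothelial and mural markers r was -0.748 (permutation p = 0.0164, adjusted p = 0.334) and rho was -0.564 (permutation p = 0.0972, adjusted p = 0.601), and r was -0.272 without the 2 farthest mice, AAV8-GFP mouse 3 and AAV8-Irisin-FLAG mouse 5. This was not particular to Igfbpl1. With the same endothelial and mural markers r was -0.792 for Neurod1 and -0.757 for Sox11 (permutation p = 0.00338 and 0.0105, adjusted p = 0.332 each). By Pearson's r 14 of the 126 relations had an unadjusted permutation p under 0.05. The relations were not tested against each other. With Ttr by itself, chosen after the values were seen, rho was 0.903 and r was 0.726 (permutation p = 0.00074 and 0.0209). All 8 tested choroid plexus markers had higher means in AAV8-Irisin-FLAG. By limma 3 of them (Ttr, F5 and Prlr) had an unadjusted p under 0.05, each with an adjusted p of 0.942. At that unadjusted level 2.28% of all genes tested were higher in AAV8-Irisin-FLAG. The summed level of the 10 listed markers ran from 1193 to 3036 normalised counts in AAV8-Irisin-FLAG and from 952 to 1211 in AAV8-GFP. Its medians were 1311 in AAV8-Irisin-FLAG and 1118 in AAV8-GFP, and the highest sum was that of AAV8-Irisin-FLAG mouse 4. None of the 10 was below 1 in every mouse. The part of these cell types in the Igfbpl1 difference was not tested.

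**Figure D2:**
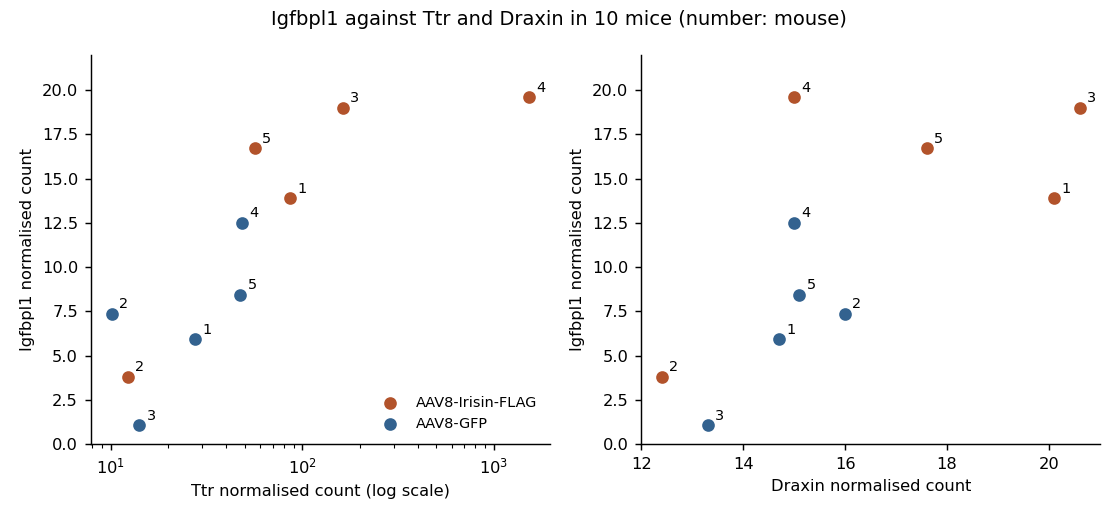
Normalised count of Igfbpl1 (vertical axis) against that of Ttr (left, log scale) and of Draxin (right) in 5 AAV8-Irisin-FLAG and 5 AAV8-GFP mice, numbered by mouse. AAV8-Irisin-FLAG mice 3 and 4 have the most Ttr, 162 and 1528, and the most Igfbpl1, 19.0 and 19.6.

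Draxin encodes a secreted guidance cue for axons that also blocks Wnt signalling (ENSMUSG00000029005.4, chromosome 4, 148098437 to 148130698, minus strand). It had 20.1, 12.4, 20.6, 15.0 and 17.6 normalised counts in AAV8-Irisin-FLAG mice 1 to 5, against 14.7, 16.0, 13.3, 15.0 and 15.1 in AAV8-GFP mice 1 to 5. AAV8-Irisin-FLAG mice 1, 3 and 5 lay above every AAV8-GFP mouse and mouse 2 below every one. The groups differed by 0.18 on the log2 scale (SE 0.2; 95% interval -0.26 to 0.62; limma, adjusted p = 0.949; exact permutation p = 0.222). It was 0.282 without AAV8-Irisin-FLAG mouse 2, 0.109 without AAV8-Irisin-FLAG mouse 3 and 0.118 without AAV8-Irisin-FLAG mouse 1. As with Nes, the AAV8-Irisin-FLAG mice were the more spread out, with a coefficient of variation of 20.2% in AAV8-Irisin-FLAG against 6.71% in AAV8-GFP. For Sox4 it was 5.39% in AAV8-Irisin-FLAG against 10.4% in AAV8-GFP, and for Sox11 12.4% in AAV8-Irisin-FLAG against 21.0% in AAV8-GFP. These contrasts of spread were not tested.

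**Figure D3:**
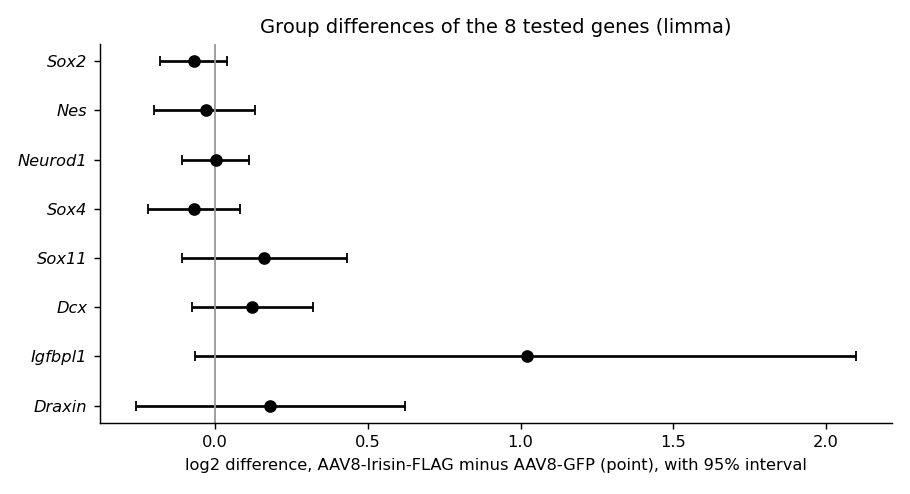
Log2 difference of AAV8-Irisin-FLAG minus AAV8-GFP (horizontal axis) for the 8 genes tested, as points with 95% intervals by limma, ordered from stem cell to young neuron. Every interval crosses 0, and that of Igfbpl1 is the widest, from -0.067 to 2.1.

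Levels between genes were compared per kilobase of merged exons in GENCODE M21. Sox2 stood highest at 654 normalised counts per kilobase over the 10 mice, followed by Neurod1 at 298, Sox4 at 157, Sox11 at 68.5, Nes at 66.3 and Dcx at 55.3. Igfbpl1 and Draxin followed at 3.33 and 3.07, and Eomes at 0.332. The ranges over mice did not overlap between Sox2, Neurod1 and Sox4, between Sox4 and Sox11, between Dcx and Igfbpl1, or between Draxin and Eomes. Sox11, Nes and Dcx overlapped their neighbours in this order, as did Igfbpl1 and Draxin, so these were not told apart. The merged length takes in every annotated exon, and a long untranslated end such as that of Dcx, whose merged exons span 12647 bases, lowers the value.

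**Figure D4:**
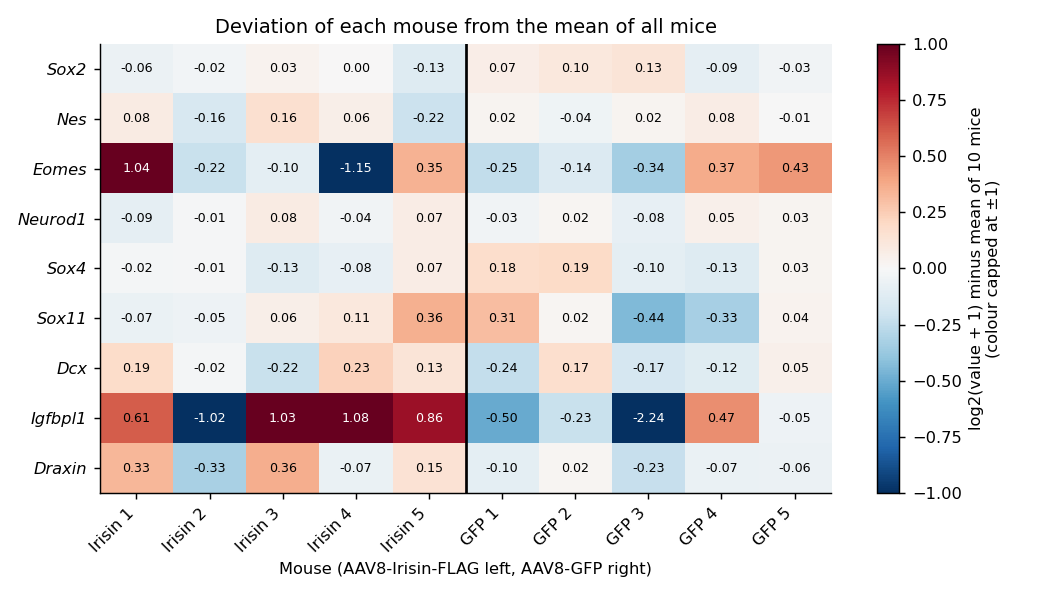
Deviation of each of 10 mice from the mean of all mice, in log2(value + 1), for the 9 genes (rows), with AAV8-Irisin-FLAG mice left of the line and AAV8-GFP mice right; red is above and blue below the mean, with the colour capped at 1. Igfbpl1 spans -2.24 in AAV8-GFP mouse 3 to 1.08 in AAV8-Irisin-FLAG mouse 4, while Neurod1 stays within -0.09 and 0.08.

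The 9 genes did not rise and fall together between mice in a way that passed the test. Among the 36 pairs, 21 had a positive Pearson's r over the 10 mice and 15 a negative one, with a median of 0.088, and no pair had an adjusted p under 0.05 by r or by Spearman's rho (1 and 3 pairs at an unadjusted p under 0.05). The pair of smallest p was Igfbpl1 and Draxin, with r = 0.714 (permutation p = 0.0212, adjusted p = 0.762) and rho = 0.721 (permutation p = 0.0241, adjusted p = 0.420), and r was 0.526 without the 2 mice farthest in Igfbpl1. Sox4 and Sox11 had r = 0.597 (permutation p = 0.0676, adjusted p = 0.762) and rho = 0.430 (permutation p = 0.217, adjusted p = 0.733), and r was 0.788 with the group means removed and 0.624 without the 2 farthest mice. Dcx and Sox11 had r = 0.234 (permutation p = 0.508, adjusted p = 0.862) and rho = 0.0545 (permutation p = 0.891, adjusted p = 0.917), with AAV8-GFP mouse 1 low in Dcx and high in Sox11, and r was 0.774 without AAV8-GFP mouse 1 and AAV8-Irisin-FLAG mouse 3, the 2 mice farthest in Dcx.

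Among the tested genes whose log2 values were most like those of Dcx over the 10 mice, by Pearson's r over 14841 genes with a given name, were Atp2b4, Fsd1l, Kmt2e and Mybl1. Their r with Dcx was 0.945, 0.944, 0.939 and 0.938, and without the 2 mice farthest in Dcx, AAV8-GFP mouse 1 and AAV8-Irisin-FLAG mouse 3, it was 0.911, 0.919, 0.911 and 0.970. No p is given because they were picked as the highest of so many. None of the other 8 neurogenesis genes was among them. Atp2b4, a calcium pump of the plasma membrane, had 4624 ± 756 normalised counts in AAV8-Irisin-FLAG and 3997 ± 563 in AAV8-GFP.

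Other genes of the lineage were read from lists, none of which held a gene with an adjusted p under 0.05. Of 14 tested stem cell genes 7 had higher and 7 lower means in AAV8-Irisin-FLAG (median log2 difference -0.0082). By limma none of them had an unadjusted p under 0.05, against 4.49% of all genes tested. Fabp7, a fatty acid-binding protein of radial glia, had 423 ± 55.0 normalised counts in AAV8-Irisin-FLAG and 487 ± 56.4 in AAV8-GFP (limma, unadjusted p = 0.056, adjusted p = 0.942), and Hes1, a repressor in the Notch pathway, had 374.5 ± 36.7 in AAV8-Irisin-FLAG and 411 ± 52.0 in AAV8-GFP. Of 9 tested genes of intermediate progenitors and neuronal fate 5 had higher means (median 0.053), with a log2 difference of 0.24 for Nhlh2, a factor of young neurons, and -0.11 for Insm1.

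Of 20 tested genes of neuroblasts and immature neurons 10 had higher and 10 lower means (median 0.0012). The tubulin gene Tubb2b, which serves growing neurites, had 6444, 6261, 6580, 5772 and 5767.5 normalised counts in AAV8-Irisin-FLAG mice 1 to 5, against 6635, 6402, 7213, 6714.5 and 6589.7 in AAV8-GFP mice 1 to 5. In 3 AAV8-Irisin-FLAG mice it was under every AAV8-GFP value, and the log2 difference was -0.12 (SE 0.045; limma, unadjusted p = 0.0157, adjusted p = 0.942). Tubb2b was the only 1 of the 20 with an unadjusted p under 0.05, against 4.49% of all genes tested, 2.21% lower. Plxna2, a semaphorin receptor of growing axons, had 5557 ± 371 in AAV8-Irisin-FLAG and 5202.5 ± 501 in AAV8-GFP. Calb2, the calretinin gene of immature granule neurons and of some interneurons, had 1129.7 ± 37.0 in AAV8-Irisin-FLAG and 1128 ± 81.9 in AAV8-GFP. The genes of this list were thus split evenly by direction. Prox1, named above as a factor of granule neurons, is among them. The median summed level of the list was 80352 normalised counts in AAV8-Irisin-FLAG and 80314 in AAV8-GFP. The list is therefore not limited to new neurons, and the even split does not describe these cells alone.

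Of 17 tested cell cycle genes 9 had higher and 8 lower means in AAV8-Irisin-FLAG (median 0.0011). By limma 1 of the 17 had an unadjusted p under 0.05, against 4.49% of all genes tested. Tyms, an enzyme of thymidylate synthesis, had 250.3 ± 13.4 normalised counts in AAV8-Irisin-FLAG and 284 ± 24.7 in AAV8-GFP (limma, unadjusted p = 0.0363, adjusted p = 0.942), with 4 AAV8-Irisin-FLAG values under all AAV8-GFP values. Pcna, the sliding clamp of DNA replication, had 1288 ± 39.2 in AAV8-Irisin-FLAG and 1212 ± 56.1 in AAV8-GFP, the other way. Mki67, the usual marker of dividing cells, ran from 71.9 to 106.7 in AAV8-Irisin-FLAG and from 67.2 to 99.6 in AAV8-GFP. Top2a, a topoisomerase of dividing cells, had 39.2 in AAV8-Irisin-FLAG mouse 1 and 18.3 to 19.4 in the other 4, against 16.4 in AAV8-GFP mouse 4 and 33.2 to 41.5 in the other 4. Mki67 and Top2a, like Neurog2 and Calb2 above, were named after their values were seen.

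Of 25 tested signals of the neurogenic niche 12 had higher and 13 lower means in AAV8-Irisin-FLAG (median -0.013). By limma 2 of the 25 had an unadjusted p under 0.05, both lower, against 4.49% of all genes tested, 2.21% lower. Frzb, a secreted Wnt antagonist that restrains adult neurogenesis in mice, had 891, 1047, 826, 822 and 737 normalised counts in AAV8-Irisin-FLAG mice 1 to 5, against 998, 869, 1207, 985 and 1046 in AAV8-GFP mice 1 to 5. The 3 AAV8-Irisin-FLAG mice with the least Frzb lay below every AAV8-GFP mouse, while mouse 2 lay above 4 of them. The log2 difference was -0.24 (SE 0.094; limma, unadjusted p = 0.0222, adjusted p = 0.942). Bdnf, the neurotrophin linked to exercise, had a log2 difference of -0.14 (unadjusted p = 0.0197, adjusted p = 0.942), and an exon of it overlaps a gene on the opposite strand.

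**Figure D5:**
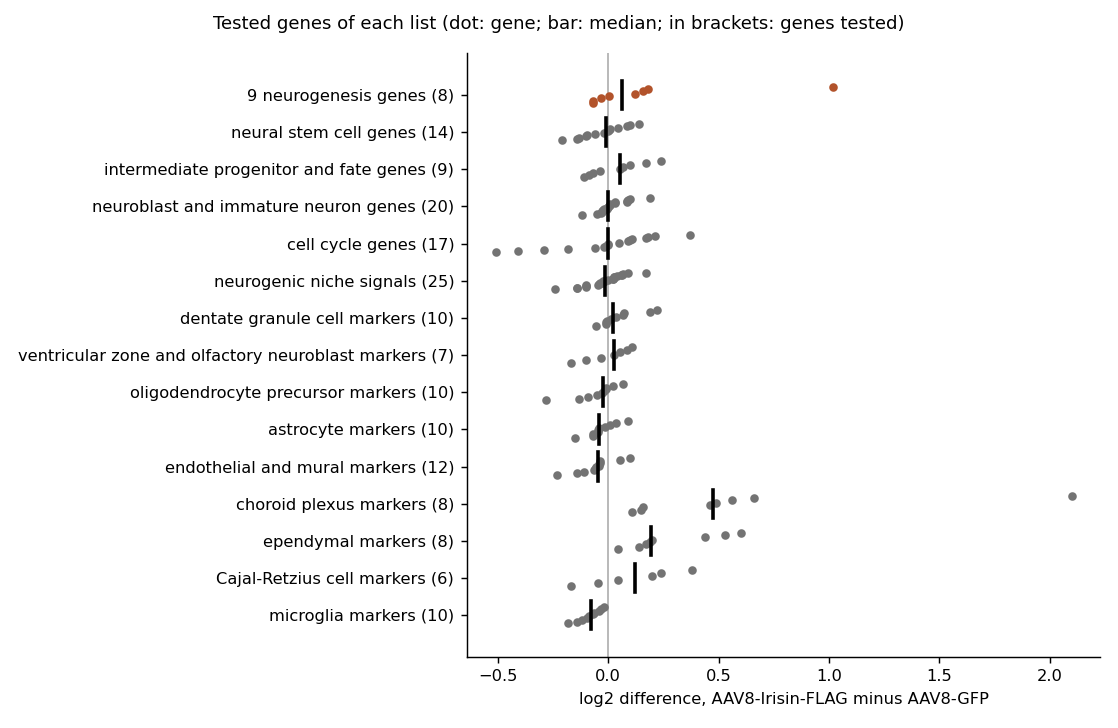
Log2 difference of AAV8-Irisin-FLAG minus AAV8-GFP (horizontal axis) of each tested gene (dot) in the neurogenesis genes and in 14 other lists (rows), with the list median as a bar and the number of genes tested in brackets. Medians of the lineage and niche lists lie between -0.013 and 0.053, and that of the choroid plexus markers is 0.47.

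Cell types that could add to these values were read in the same way, and the part of each was not tested. Dentate granule cell markers had a median log2 difference of 0.023 over 10 tested genes, with higher means in 6, and their summed level ran from 19022 to 22377 normalised counts in AAV8-Irisin-FLAG and from 18804.5 to 23099.8 in AAV8-GFP. Pdzd2 and Maml2, the pair of smallest p, had 2246 ± 241 and 933 ± 24 normalised counts in AAV8-Irisin-FLAG, against 1994 ± 431 and 890.4 ± 59.5 in AAV8-GFP. Markers of ventricular zone and olfactory neuroblasts, which also express Dcx and Sox11, had a median of 0.025 over 7 tested genes, with higher means in 4 and lower in 3. The log2 difference was 0.083 for Sp9 and 0.11 for Dlx5, and -0.17 for Sp8, named after its value was seen. Of the 6 tested Cajal-Retzius cell markers 4 had higher and 2 lower means (median 0.12, range -0.17 to 0.38). Reln, the reelin gene, named after its value was seen, had a log2 difference of -0.044. Ndnf had 911 ± 248 in AAV8-Irisin-FLAG and 688.5 ± 116 in AAV8-GFP (limma, unadjusted p = 0.0264, adjusted p = 0.942). Ndnf was the only 1 of these 6 with an unadjusted p under 0.05, against 4.49% of all genes tested, 2.28% higher.

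Astrocyte markers, among cells that express Sox2, had lower means in 7 of 10 genes (median -0.043), with log2 differences of -0.15 for Gfap and -0.068 for S1pr1. Oligodendrocyte precursor markers had lower means in 8 of 10 (median -0.025). C1ql1, a secreted synaptic organiser, had 339 ± 13.6 normalised counts in AAV8-Irisin-FLAG and 413 ± 25.6 in AAV8-GFP (limma, unadjusted p = 0.000554, adjusted p = 0.942). All 5 AAV8-Irisin-FLAG values lay under all AAV8-GFP values, which held for 0.422% of all genes tested. No other of these 10 markers had groups that did not overlap. By limma 1 of the 10 had an unadjusted p under 0.05, against 4.49% of all genes tested. Endothelial and mural markers, among cells that express Nes, had lower means in 10 of 12 (median -0.048), with log2 differences of -0.23 for Cldn5 and -0.11 for Vtn. All 10 microglia markers had lower means (median -0.078), with -0.18 for Aif1 and -0.14 for C1qa. All 8 ependymal markers had higher ones (median 0.2), with 0.53 for Ccdc153 and 0.6 for Tmem212. In the sums of each list, AAV8-GFP mouse 3 was highest for astrocyte, vessel and microglia markers and lowest for ependymal ones. Median sums in AAV8-Irisin-FLAG and AAV8-GFP were 18772 and 18847.5 for microglia, 184753 and 185259 for astrocyte, and 11185 and 11231 for vessel markers. They were 19714 and 20459 for oligodendrocyte precursor and 774 and 704 for ependymal markers. The part of AAV8-GFP mouse 3 in these directions was not tested. The 12 markers of lymphocytes and NK cells, some of which express Eomes, were all too low to test, with a summed level of 14 to 29.0 in AAV8-Irisin-FLAG and 11.9 to 25.6 in AAV8-GFP.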

How the data were processed

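RNA from frozen hippocampus was purified with a Qiagen column kit, captured on oligo(dT) beads and made into NEBNext Ultra libraries, per the labels' protocols. The submitters' processing notes name bcl2fastq 2.17, DESeq2 and the build mm10, while an aligner, a counting tool, its strand setting and an annotation are not given in the sources used here. Values in the authors' deposited table are a signal, read counts scaled by DESeq2. These are not whole reads, so no count model was used and no counting interval is given.

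Groups followed the titles, with 5 mice each, and no library was left out of the main fit. Titles number separate mice, and p-values measure the spread between these samples. Genes reaching 10 in 5 or more of the 10 libraries were kept (17556 genes), put on the scale log2(value + 1) and fitted with limma 3.58.1 in R 4.3.3 (lmFit, then eBayes with a mean trend). Tests were two-sided, Benjamini-Hochberg adjustment ran over all genes tested, and calls needed an adjusted p under 0.05. Each log2 difference is AAV8-Irisin-FLAG minus AAV8-GFP on that scale, which understates changes of low genes. The gene test was checked on simulated data. Exact permutations were two-sided over all assignments of the mice, and correlations used 100000 resamples (numpy 2.4.6). Positions are GENCODE M21's, and 30711 of 31510 symbols matched. Named genes are the 9 genes, the 2 tested genes of smallest p of each other list, and the 5 nearest to Dcx, of which some are not reported here. Dates stood for 26 symbols in the table. The 9 genes, the lists, the motifs and the tests were chosen with earlier results of these data known. Alternatives changed the pseudocount, the filter, the normalisation, the variance model, the block and the libraries used.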

Additional observations from a re-analysis of the deposited data

Results flagged for a closer look

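Among 82 groups of 5 mice, of the 41 named genes, 3 held a mouse far from the others of its group, and chance gives about 1 in 20. All 3 were in AAV8-Irisin-FLAG mouse 4, and none was one of the 9 neurogenesis genes. Ttr was 1528 normalised counts there and 12.3 to 162 in the other AAV8-Irisin-FLAG mice. F5, a coagulation factor gene of the choroid plexus list whose exon overlaps a gene on the opposite strand, was 89.3 there and 34.8 to 40.1 in the others. Gpr17, a receptor of oligodendrocyte precursors that overlaps a gene on the opposite strand, was 950.4 there and 1217 to 1279.5 in the others. Without AAV8-Irisin-FLAG mouse 4 the log2 difference was 0.878 for Igfbpl1 and 0.0816 for Dcx.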

How the results depend on the processing

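None of the 8 tested genes was called under any of the 20 other settings, and 149 of 158 recomputed values kept their direction and side of the threshold. All 9 that turned sign were for the near-zero differences of Neurod1 and Nes. Neurod1 was -0.0136 with array quality weights, -0.0482 relative to dentate granule cell markers, -0.00924 without AAV8-Irisin-FLAG mice 3 and 4 (chosen after seeing the data), and -0.0168 to 0.0268 with each mouse left out. Relative to dentate granule cell markers all genes shift alike, with a median of -0.05 over all genes tested. Nes was -0.0757 to 0.0188 with each mouse left out. The median of the neurogenesis genes was 0.0633, 0.0275 to 0.0949 with each mouse left out, and -0.0143 with a minimum of 50, which leaves 6 genes. Over all genes limma called 0 (788 at an unadjusted p under 0.05), 1 of 26538 without a filter and 10 relative to dentate granule cell markers, none of them among the 9 genes, and the cause was not tested. Ttr was among the 10 (log2 difference 2.05, limma adjusted p = 0.0283). With each mouse left out limma called 0, with 595 to 1096 at an unadjusted p under 0.05. Mice that share a number did not deviate together (correlations -0.0891 to 0.0297), and with the replicate block 0 genes were called, 862 at an unadjusted p under 0.05. Eomes, at 0 to 3.54 normalised counts, was too low for a difference to be detectable at this depth.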
